A study of Mus musculus with 8 samples.

Results

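The genes described here are 10 genes of the macrophages that recycle the iron of red blood cells: C1qa, C1qb, C1qc, Cd5l, Hmox1, Slc40a1, Vcam1, Axl, Spic and Cd68. They were chosen by name, with their values in the comparison of Msi2 KO with control already known, so those values are given as a description with no test. All probe sets annotated to 1 of these genes alone were taken, 17 in number, and the 12 that were not listed at 0 on all arrays were used. They measure 8 of the 10 genes, out of 10720 genes measured in all. Neither C1qa nor C1qc was measured, since their probe sets were listed at 0. RNA came from LSK cells of mouse bone marrow, named for lacking lineage markers and carrying Sca1 and Kit, among which are haematopoietic stem cells. The control group held 4 arrays of WT cells and the Msi2 KO group 4 arrays of cells with a conditional knockout of Msi2, the gene of the RNA-binding protein Musashi 2. Age, strain, the Cre line and any inducing treatment are not stated in the labels used here. Nor do they say whether replicates are separate animals, so errors and p-values measure the spread between these arrays, which may be partly technical. Xist and the Y-linked gene Eif2s3y, given below, show both sexes in each group, so its arrays did not all come from the same animal.

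Macrophages of spleen, liver and bone marrow engulf old red cells and the nuclei that maturing erythroblasts expel. Haem from the digested cell is split by haem oxygenase 1 (Hmox1), and the freed iron leaves the macrophage through the exporter ferroportin (Slc40a1). Haem also removes the repressor BACH1, which otherwise holds Hmox1, Slc40a1 and the gene of the transcription factor SPIC in check. In bone marrow such macrophages sit at the centre of erythroblastic islands, where VCAM1 on their surface holds erythroblasts through the integrin of Itga4 and Itgb1. AXL and C1q bind dying cells for uptake, CD5L (also called AIM) is secreted by tissue macrophages, and CD68 is a protein of the lysosome membrane.

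Across the 8 measured genes the KO mean was above the control mean for every gene and for 12 of 12 probe sets (background 50.1%), by 0.51 (Spic) to 2.36 (C1qb) on the log2 scale, with a median of 1.16 against 0.00 over all genes. The difference was at least 1 for 8 of 12 probe sets (background 0.545%). No member probe set passed the adjusted threshold of limma (0 of 12, background 0%), and 2 of 12, of Cd68 and Slc40a1, were at an unadjusted p under 0.05 (background 9.72% in either direction and 4.87% higher in KO). The KO and control arrays failed to overlap for 1 of 12 probe sets, that of Cd68, higher in KO (background 3.12% higher, 2.96% lower and 6.09% in either direction). Because the genes were picked on this contrast, nothing is read from these counts. Within each group the arrays were far apart for most of the genes.

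The 8 arrays had median log2 signals of 7.03 to 7.07 and correlated with each other at 0.942 to 0.983. The leading principal component held 28.6% of the variance and had Msi2 KO 3 at one end (69.4) and control 1 at the other (-39.4), with the remaining arrays from -21.6 to 17.0. Msi2 itself, at 90.7% to 108% of the control mean on the control arrays, read 88.7%, 79.0%, 14.2% and 44.8% on Msi2 KO 1 to 4 (probe set 1421230_a_at). Xist, which the inactive X chromosome makes, read 4.79 to 5.55 on 3 arrays (Msi2 KO 1, Msi2 KO 2 and control 1) and 11.92 to 12.51 on the other 5. The Y-linked gene Eif2s3y read 8.05 to 8.14 on those 3 arrays and 3.36 to 3.62 on the other 5. The low readings of both genes give rough background levels. Signals under 5.55 are thus not shown to lie above background, among them the lowest of every measured member gene but Cd68.

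The complement protein C1q is built from the products of C1qa, C1qb and C1qc, neighbours in the genome, and tags dying cells and immune complexes. Of the 3 chains only C1qb was measured, on probe sets 1437726_x_at and 1434366_x_at, while its probe set 1417063_at was listed at 0. The suffix x marks probes that may match other transcripts too, so the C1qb signal rests on probe sets of that kind alone. On 1437726_x_at the log2 signal was 3.29, 7.91, 7.16 and 6.62 on control 1 to 4 and 9.83, 9.60, 5.22 and 9.76 on Msi2 KO 1 to 4. Thus 3 KO arrays lay above every control and Msi2 KO 3 lay below 3 of the 4 controls, so the groups overlapped. The control mean was 6.25 ± 2.04 and the KO mean 8.60 ± 2.26 (SD, n = 4 each), a difference of 2.36 ± 1.52 (SE), and of 1.37 without control 1. The other probe set gave 6.17 ± 1.31 and 8.03 ± 1.83 (SD, n = 4 each), with the same arrays lowest in each group, and the pair differed from each other by 0.08 to 0.98 per array.

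Promoter windows in RefSeq (GRCm38.p6) were found for 6 of the 10 genes, C1qb, C1qc, Cd5l, Axl, Spic and Cd68. C1qb, Axl and Cd68 were each lowest in KO on Msi2 KO 3. Among the controls, control 1 was lowest for C1qb and Axl and highest for Cd68. The 250 bases before the start are shown for these genes. All are on the minus strand, read 5′ to 3′, at chr4:136886201-136886450 (C1qb), chr7:25788734-25788983 (Axl) and chr11:69666171-69666420 (Cd68). Capitals mark matches to the motifs searched.
C1qb: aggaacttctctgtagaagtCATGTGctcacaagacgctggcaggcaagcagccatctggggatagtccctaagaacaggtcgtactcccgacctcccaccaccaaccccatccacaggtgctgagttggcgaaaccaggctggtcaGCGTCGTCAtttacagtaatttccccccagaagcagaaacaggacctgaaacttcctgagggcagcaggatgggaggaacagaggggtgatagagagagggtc
Axl: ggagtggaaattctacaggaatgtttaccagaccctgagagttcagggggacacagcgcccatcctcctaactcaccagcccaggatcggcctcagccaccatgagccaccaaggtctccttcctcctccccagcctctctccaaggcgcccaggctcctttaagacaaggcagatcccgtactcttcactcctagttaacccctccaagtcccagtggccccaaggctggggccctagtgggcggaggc
Cd68: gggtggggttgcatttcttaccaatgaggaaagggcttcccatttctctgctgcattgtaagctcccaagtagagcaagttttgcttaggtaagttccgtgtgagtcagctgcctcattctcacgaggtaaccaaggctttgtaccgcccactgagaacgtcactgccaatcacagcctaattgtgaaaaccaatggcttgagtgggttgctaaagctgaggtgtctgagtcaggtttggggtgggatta
The motifs were searched on both strands over windows of 300 bases that also hold the first 50 bases of the gene. Only exact matches were counted, with N standing for any base, so variant forms of these sites would be missed. In C1qb the capitals are CATGTG, an E box of the MiT factors of lysosome genes, and the reverse strand of TGACNNNGC, the element of BACH1, NRF2 and MAF proteins. CATGTG occurs in 14.2% and TGACNNNGC in 12.4% of all 32851 windows. The C1qc window held GAGGAAGT, the core bound by PU.1 and SPIC, which 3.2% of windows have, and CATGTG, both on the reverse strand. Neither these motifs nor CACGTG (7.2% of windows) or AGATAA, the GATA core (11.2%), was found in the windows of Axl, Cd5l, Spic and Cd68. C1qb and C1qc had no match to CACGTG or AGATAA either. The matches in C1qb and C1qc do not overlap each other.

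Hmox1 encodes the enzyme that opens the haem ring and releases iron, carbon monoxide and biliverdin. Its log2 signal was 4.68, 6.49, 6.87 and 6.15 on control 1 to 4 and 7.78, 7.80, 5.31 and 8.72 on Msi2 KO 1 to 4. As with C1qb, 3 KO arrays were above all controls, and Msi2 KO 3 was above control 1 alone. The means were 6.05 ± 0.96 in control and 7.40 ± 1.46 in KO (SD, n = 4 each), a difference of 1.35 ± 0.88 (SE). It was 0.90 without control 1 and 2.05 without Msi2 KO 3.

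Slc40a1 encodes ferroportin, the iron exporter of macrophages, which red cell precursors make as well. On 1417061_at it read 5.28, 7.97, 8.15 and 7.35 on control 1 to 4 and 7.92, 8.49, 8.80 and 8.84 on Msi2 KO 1 to 4. It was the only measured gene of the 8 not lowest in KO on Msi2 KO 3, which was instead its second highest array, 0.28 above the KO mean. All 4 KO arrays lay above the control mean and 3 above every control, and control 1 was the lowest array by over 2 log2 units. The means were 7.19 ± 1.32 and 8.51 ± 0.43 (SD, n = 4 each), a difference of 1.32 ± 0.69 (SE), and of 0.69 without control 1. Probe set 1448566_at gave a difference of 1.39 ± 0.78 (SE), but on control 4 it read 5.80, 1.55 below the other probe set, the widest gap between these 2 sets on any array.

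**Figure D1:**
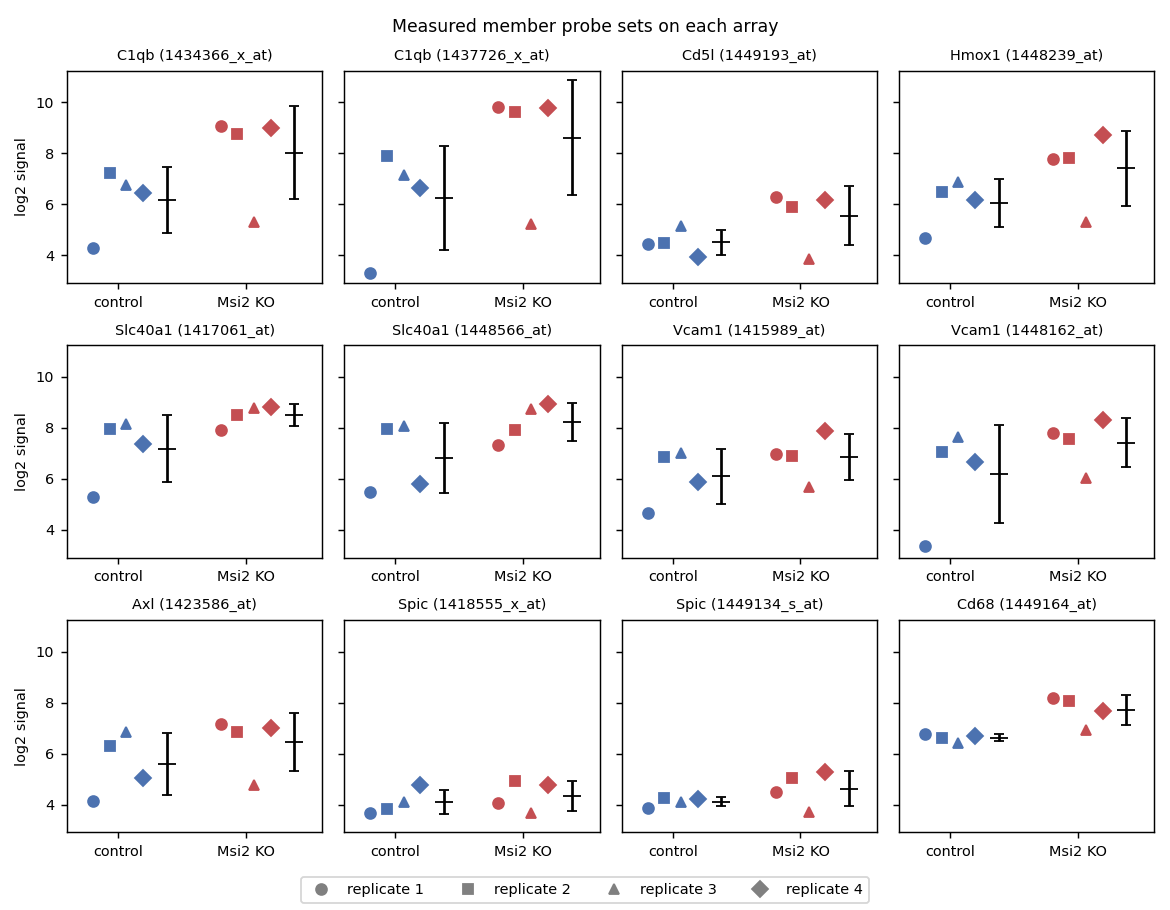
Log2 signal (y axis, shared by all panels) of the 12 measured member probe sets on each of the 4 control arrays (blue) and 4 Msi2 KO arrays (red). Marker shapes give the replicate number, which the labels do not say pairs samples, and the black bar gives the mean and SD of the group. Msi2 KO 3 (red triangle) is the lowest KO array for 10 of 12 probe sets, and control 1 (blue circle) the lowest control for 10 of 12.

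Vcam1, the adhesion molecule that binds the integrin of Itga4 and Itgb1, is made by bone marrow stroma and endothelium as well as by macrophages. On 1448162_at it read 3.38, 7.06, 7.66 and 6.66 on control 1 to 4 and 7.81, 7.55, 6.04 and 8.30 on Msi2 KO 1 to 4. Control 1 was the lowest array by over 2 log2 units, and Msi2 KO 1 and 4 were above every control. The means were 6.19 ± 1.92 and 7.43 ± 0.97 (SD, n = 4 each), a difference of 1.24 ± 1.08 (SE). Without control 1 it was 0.30. Probe set 1415989_at gave 0.76 ± 0.70 (SE), and 1451314_a_at was listed at 0. The 3.38 on control 1 is not shown to lie above background, and 1415989_at read 4.67 there, the widest gap between these 2 sets (1.29).

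Axl encodes a receptor tyrosine kinase that recognises dying cells through its ligand GAS6. It read 4.14, 6.31, 6.86 and 5.05 on control 1 to 4 and 7.17, 6.83, 4.77 and 7.02 on Msi2 KO 1 to 4. Msi2 KO 1 and 4 were above every control and Msi2 KO 3 was below 3 of them. The means were 5.59 ± 1.23 and 6.45 ± 1.13 (SD, n = 4 each), a difference of 0.86 ± 0.83 (SE). The difference without control 1 was 0.37, and without Msi2 KO 3 it was 1.42.

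Cd5l, whose protein keeps macrophages alive and binds lipids, read 4.42, 4.49, 5.14 and 3.95 on control 1 to 4 and 6.30, 5.90, 3.85 and 6.16 on Msi2 KO 1 to 4. Again 3 KO arrays were above all controls, while Msi2 KO 3 was the lowest of the 8 arrays. Its means were 4.50 ± 0.49 and 5.55 ± 1.15 (SD, n = 4 each), a difference of 1.05 ± 0.62 (SE), and of 1.62 without Msi2 KO 3. Control 1 was not low for Cd5l, at -0.08 relative to the control mean, against -2.95 for C1qb. The Cd5l signals of all controls and of Msi2 KO 3 are not shown to lie above background. There was thus little room for a lower value on control 1.

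Spic encodes the transcription factor that red pulp and bone marrow macrophages need. Its probe set 1449134_s_at read 3.88, 4.26, 4.11 and 4.24 on control 1 to 4 and 4.49, 5.05, 3.73 and 5.26 on Msi2 KO 1 to 4. Here 3 KO arrays were above every control and Msi2 KO 3 below all of them, and whether these signals lie above background is unknown. The means were 4.12 ± 0.18 and 4.63 ± 0.69 (SD, n = 4 each), a difference of 0.51 ± 0.35 (SE). It was 0.81 without Msi2 KO 3 and 0.30 without Msi2 KO 4. Probe set 1418555_x_at gave 0.26 ± 0.38 (SE), with 1 KO array above every control. Both Spic probe sets may match other transcripts, as their suffixes say.

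Cd68, a membrane protein of lysosomes and endosomes found in macrophages and at lower levels in other myeloid cells, read 6.76, 6.62, 6.43 and 6.67 on control 1 to 4. It read 8.20, 8.05, 6.91 and 7.67 on Msi2 KO 1 to 4, so the groups did not overlap, and Msi2 KO 3 was only just above the highest control. The means were 6.62 ± 0.14 and 7.71 ± 0.58 (SD, n = 4 each), a difference of 1.09 ± 0.30 (SE), or 2.12-fold. The controls of Cd68 spanned 0.33, against 4.61 for C1qb, and control 1 was the highest of them.

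The order of the arrays was shared by most of the genes. Msi2 KO 3 was the lowest KO array for 7 of 8 genes on their brightest probe sets, and for 10 of 12 probe sets, where over all probe sets it was lowest for 28.8%. Control 1 was the lowest control for 6 of 8 genes and for 10 of 12 probe sets, against 28.3% over all probe sets. Averaged over the 8 genes, each relative to its control mean, the arrays stood at -1.33, 0.58, 0.73 and 0.02 on control 1 to 4 and at 1.62, 1.60, -0.24 and 1.90 on Msi2 KO 1 to 4. Hence 3 KO arrays were above every control and Msi2 KO 3, the array with the least Msi2 signal, fell within the control range. The mean difference of 1.22 compares with SDs between arrays of 0.94 in control and 0.98 in KO.

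**Figure D2:**
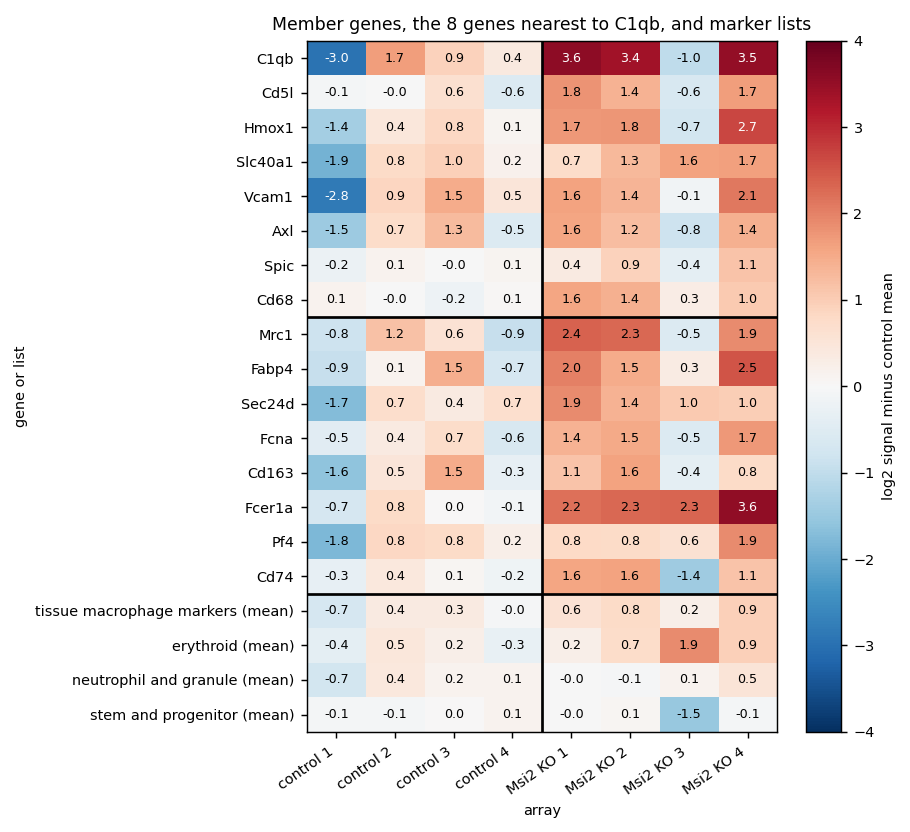
Log2 signal minus the control mean (colour and printed value) on each array (columns) for the 8 measured member genes, the 8 genes whose profile was nearest to that of C1qb, and the means of 4 marker lists (rows). On Msi2 KO 3 the cells of 6 of the 8 member genes are blue, below the control mean, while Slc40a1 and Cd68 are above it.

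The group difference therefore depended on which arrays were used. Without Msi2 KO 3 the mean difference of the 8 genes was 1.71 and the groups failed to overlap for 6 of 12 probe sets, all higher in KO (background without that array 4.65%). Those were both of C1qb and those of Cd5l, Hmox1 and Cd68 and 1449134_s_at of Spic. Without control 1 the mean difference was 0.78, with Vcam1 and Axl moving most in proportion. Low and high Xist cut across the groups, since control 1 is the only low-Xist control. Within the 5 high-Xist arrays, controls 2 to 4 and Msi2 KO 3 and 4, the mean difference was 0.39, with C1qb at 0.26, Vcam1 at 0.04 and Axl at -0.18. The 2 KO arrays there disagreed, with C1qb at 5.22 and 9.76. Slc40a1 stood at 0.99 and Cd68 at 0.72 there. For these 2 genes (3 of 12 probe sets) the groups did not overlap within the high-Xist arrays (background 16.1%). Within the 3 low-Xist arrays, control 1 and Msi2 KO 1 and 2, it was 2.94 and rests on 1 control. C1qb stood at 6.42 there, taken against a control signal of 3.29 that is not shown to lie above background. All 12 probe sets were higher on both of those KO arrays (background 33.1%). Msi2 KO 3 and control 1 were the lowest arrays of their groups for most member genes. The genes were also picked on this contrast, so nothing is read from the counts without overlap in these subsets. With the Xist level as a covariate the mean difference was 1.32. Sex, as read from Xist, and the low array control 1 cannot be told apart in the controls.

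**Figure D3:**
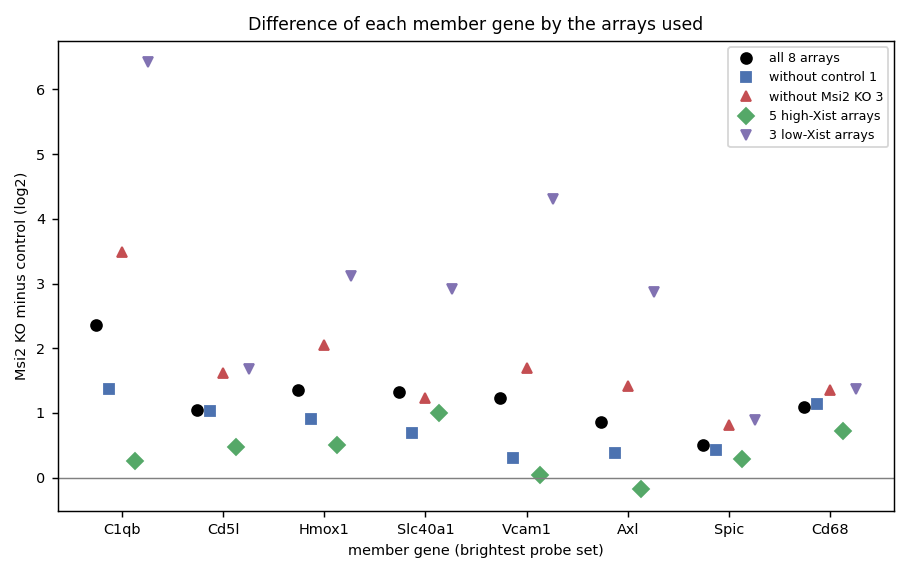
Difference of the group means, Msi2 KO minus control on the log2 scale (y axis), for the brightest probe set of each measured member gene (x axis), with all 8 arrays and with 4 smaller sets of arrays. Without Msi2 KO 3 (red triangles) C1qb stands at 3.48, within the high-Xist arrays (green diamonds) at 0.26, while Cd68 lies between 0.72 and 1.36 throughout.

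Other markers of tissue macrophages were mostly not measured, so the label of the gene set was only partly borne out in these arrays. Of 24 listed markers 8 had a probe set above 0, 15 were listed at 0 and 1 had no probe set of its own. The sialoadhesin gene Siglec1 and Timd4, Marco, Vsig4, Fcgr1, Cd14 and Itgam were among those listed at 0. Adgre1, which encodes a surface receptor used to identify mouse macrophages, read 3.32 to 3.62 in control and 3.59 to 4.34 in KO. The Y-linked gene Eif2s3y read 3.36 to 3.62 on the high-Xist arrays, so Adgre1 in control is not shown to lie above background. Mertk too read close to that level, at 3.47 to 3.75, on all arrays but Msi2 KO 4 (4.88). The 8 measured markers, Adgre1 and Mertk included, all had a higher mean in KO, with a median difference of 0.52, where 50.4% of all genes were higher. Of these 0 passed limma's adjusted threshold, and 2, Mpeg1 and Adgre1, were higher at an unadjusted p under 0.05. The mean level of the 8 markers ran from 5.61 to 6.65 over the control arrays and from 6.50 to 7.23 over the KO arrays. Mrc1, the mannose receptor, read 4.23, 6.22, 5.63 and 4.12 on control 1 to 4 and 7.40, 7.34, 4.50 and 6.93 on Msi2 KO 1 to 4. Msi2 KO 3 was its lowest KO array, below 2 of the controls. The difference was 1.50 ± 0.70 (SE of the limma fit, as for all genes outside the set) at a limma adjusted p of 0.536. Cd163, the receptor for haemoglobin bound to haptoglobin, differed by 0.79 ± 0.64 (SE; limma adjusted p 0.736). Csf1r, the receptor of the macrophage growth factor M-CSF, read 7.05 to 9.37 over all arrays and 9.33 on Msi2 KO 3. Adgre1, Mrc1, Mertk and Cd163 were lowest in KO on Msi2 KO 3, while Csf1r, Fcgr3, Sirpa and Mpeg1 were not. Fcgr3 read 8.40 there, its highest array, and Mpeg1 8.12. Relative to the control mean, the 8 markers averaged 0.22 on Msi2 KO 3 and 0.56, 0.78 and 0.95 on Msi2 KO 1, 2 and 4. In whole-population RNA such as this, fewer cells of a type and less RNA per cell cannot be told apart.

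Of the other genes of haem and iron handling 22 of 27 were measured. Of these 16 were higher and 6 lower in KO, with a median difference of 0.23, and 0 passed (3 higher and 1 lower at an unadjusted limma p under 0.05, against 600 and 590 of all 10720 genes). Blvrb, the biliverdin reductase of red cells, read 6.80 to 7.79 in control and 8.58, 8.72, 9.80 and 8.78 on Msi2 KO 1 to 4, so its highest array was Msi2 KO 3. Its difference was 1.72 ± 0.32 (SE) at a limma adjusted p of 0.291. Slc48a1, which carries haem out of the phagolysosome, read 8.34 to 8.50 in KO and 8.64 to 8.94 in control, with no overlap (-0.37 ± 0.12, SE, limma adjusted p 0.425). Fth1, the ferritin heavy chain, differed by -0.05 on its brightest probe set and by 0.57 on 1427021_s_at (limma adjusted p 0.914 and 0.323), so its probe sets disagree. Tfrc, the transferrin receptor, differed by 0.13 ± 0.35 (SE; limma adjusted p 0.939). Ftl1 had no probe set of its own here.

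Of 14 measured regulators of the macrophages and of the haem response 8 were higher and 6 lower (median 0.13), and 0 passed, with 1 in each direction at an unadjusted limma p under 0.05. Bach1, the haem-sensing repressor, differed by -0.00 ± 0.24 (SE) and Nfe2l2, which encodes its competitor NRF2, by 0.15 ± 0.20. Spi1, the gene of the myeloid factor PU.1, differed by 0.14 ± 0.19 (SE). Maf, a macrophage transcription factor, read 5.37, 5.89, 6.32 and 4.73 on control 1 to 4 and 7.06, 5.91, 5.02 and 7.01 on Msi2 KO 1 to 4. Msi2 KO 3 was again its lowest KO array. On brightest probe sets Spi1, Bach2, Rxra and Mitf were also lowest in KO there, while Irf8, Nfe2l2, Keap1 and Mafk were highest in KO there. Relative to the control mean, the list averaged -0.04 on Msi2 KO 3 and 0.08, -0.02 and 0.13 on Msi2 KO 1, 2 and 4. Nr1h3, encoding LXR alpha, lay between 4.44 and 5.55 on all arrays. The smallest p-values of the list belonged to the MiT family genes Tfec (-0.98 ± 0.30, SE, limma adjusted p 0.404) and Mitf (0.51 ± 0.17, SE, limma adjusted p 0.425).

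Among complement genes 8 of 20 were measured, 5 higher and 3 lower (median 0.09), and 0 passed (1, higher, at an unadjusted limma p under 0.05). Over all probe sets the list's smallest p-values were those of Cd93, once described as a C1q receptor, and of Cfp, which encodes properdin. Cd93 differed by -0.57 ± 0.16 (SE) on 1441907_s_at and by -0.22 ± 0.15 on its brightest probe set (limma adjusted p 0.378 and 0.687). Cfp, the 1 gene counted on brightest probe sets, differed by 0.49 ± 0.17 (SE, limma adjusted p 0.443). The probe sets of C1ra, C1s1 and C2 were listed at 0. Of 16 genes of engulfment 6 were higher and 10 lower (median -0.04), and 0 passed (1, higher, at an unadjusted limma p under 0.05). The TAM receptors Mertk (3.47 to 4.88) and Tyro3 (3.76 to 4.46) and the ligand Gas6 (3.79 to 5.11) had signals in these ranges over the 8 arrays, and the ligand Pros1 differed by -0.31 ± 0.22 (SE). Scarb1, a scavenger receptor, differed by 0.87 ± 0.24 (SE) on 1437378_x_at and by 0.66 ± 0.26 on its brightest probe set (limma adjusted p 0.372 and 0.475). The probe sets of Anxa1, encoding annexin A1, disagree: the difference was 0.94 ± 0.32 (SE) on 1444016_at and -0.07 ± 0.16 on its brightest (limma adjusted p 0.437 and 0.927).

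The lysosome list, to which Cd68 is related, had 11 of 18 genes higher (median 0.04) and 0 past the threshold. On brightest probe sets 2, Ctsd and Tfe3, both higher, were at an unadjusted limma p under 0.05. Over all probe sets the smallest p-values of the list were those of the proteases Ctsd (0.32 ± 0.12, SE, limma adjusted p 0.475) and Ctsb. Ctsb differed by 0.50 ± 0.20 (SE) on 1417491_at and by 0.21 ± 0.13 on its brightest probe set (limma adjusted p 0.479 and 0.634). Of the 9 genes that bind VCAM1 or act beside it 3 were higher and 6 lower (median -0.12), and 0 passed (1, lower, at an unadjusted limma p under 0.05). Itga4 differed by 0.13 ± 0.20 (SE) and Itgb1 by -0.29 ± 0.20 on their brightest probe sets, and 1436037_at of Itga4 by 0.64 ± 0.26 (limma adjusted p 0.480). Itga9, an integrin chain that can also bind VCAM1, differed by -1.53 ± 0.28 (SE; limma adjusted p 0.291), with all KO arrays below all controls.

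Marker lists of other cells moved with some arrays. The 17 measured erythroid genes all had a higher mean in KO (median 1.14), where 50.4% of all genes did. None passed limma's adjusted threshold (0 of 17), and 8 of 17 were higher at an unadjusted p under 0.05, against 600 of all 10720 genes. Their mean stood at -0.39, 0.46, 0.22 and -0.29 relative to the control mean on control 1 to 4 and at 0.25, 0.73, 1.90 and 0.94 on Msi2 KO 1 to 4. The erythroid mean was thus highest on Msi2 KO 3, where C1qb, Hmox1, Axl and Cd5l were lowest in KO and Slc40a1 was not. A list of 9 measured stem and progenitor genes stood at -1.52 on Msi2 KO 3, while the rest of the arrays lay from -0.09 to 0.15. Kit, its only gene that defines the LSK gate and was measured, read 9.02 on Msi2 KO 3 against a control mean of 8.70, so the low mean came from others such as Hlf (7.07 against 10.01) and Procr (6.48 against 9.09). Ly6a, which encodes Sca1, had no probe set of its own. Neutrophil and granule genes (7 of 15 measured) stood at -0.73 on control 1 and between -0.05 and 0.53 elsewhere, and their mean level ran from 9.02 to 10.18 in control and 9.69 to 10.27 in KO. Monocyte and dendritic cell genes (9 of 15) ranged from 7.70 to 8.06 and from 7.52 to 8.12, and stromal and endothelial genes (9 of 16) from 6.41 to 6.75 and from 6.01 to 6.46. In each of these 2 lists 3 genes were higher and 6 lower in KO (medians -0.12 and -0.64). At an unadjusted limma p under 0.05 were 1 higher and 1 lower of the first and 3 lower of the second, against 590 lower of all 10720 genes. Of neutrophil and granule genes 6 were higher and 1 lower (median 0.06), of stem and progenitor genes 1 and 8 (median -0.41). The stromal markers Cxcl12, Lepr, Pdgfra and Col1a1 were listed at 0. Of the lineage gate 2 of 10 genes were measured, Ptprc and Cd5, at unlike levels. Ptprc read 9.91 to 10.43 in control and 9.33 to 9.89 in KO. Cd5 read 3.81 to 4.19 in control and 3.73 to 4.32 in KO, signals not shown to lie above background. The part of these cells in the values of the member genes was not tested.

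**Figure D4:**
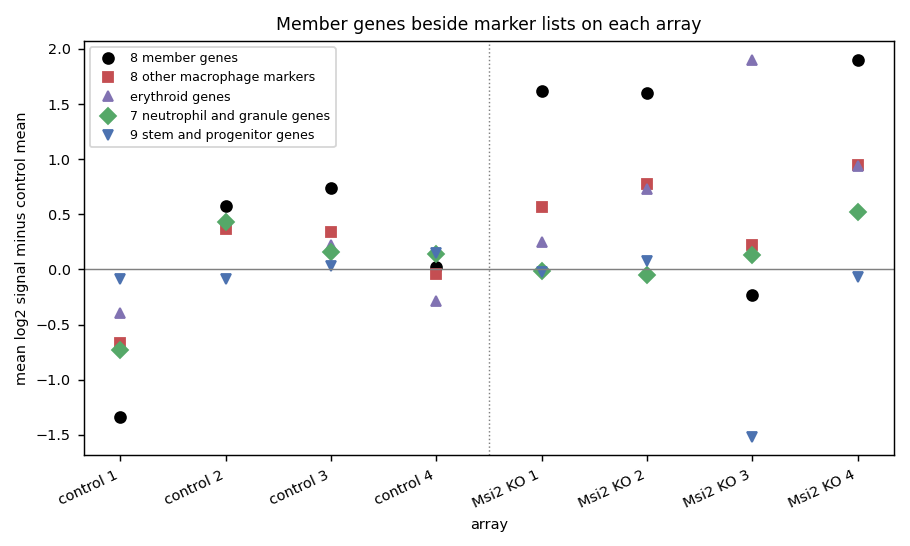
Mean log2 signal minus the control mean (y axis) on each array (x axis) for the 8 measured member genes and for 4 marker lists, 1 point per list and array. The member genes (black) are lowest on control 1 (-1.33) and, within KO, on Msi2 KO 3 (-0.24), where the erythroid list (purple) is highest (1.90) and the stem and progenitor list (blue) lowest (-1.52).

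Likeness to C1qb was measured as the root mean square difference between 2 genes' profiles over the 8 arrays, each profile being the log2 signal minus the control mean. Among all genes the nearest were Hmox1 (1.17), Vcam1 (1.20), Mrc1 (1.23), Fabp4 (1.44) and Axl (1.46), so 3 of the 5 nearest were member genes. Cd5l (1.68) was at rank 13 and Slc40a1 (1.76) at rank 14 when C1qb itself is counted, Cd68 (1.91) at rank 28 and Spic (2.03) at rank 65. The genes outside the set were Mrc1, Fabp4 (a fatty acid binding protein of fat cells and macrophages), Sec24d (a coat protein of secretory vesicles), Fcna (ficolin A, a lectin of macrophages), Cd163, Fcer1a (the IgE receptor chain), Pf4 (platelet factor 4) and Cd74 (the MHC class II invariant chain). Their values ran from 1.23 for Mrc1 to 1.67 for Cd74. By the same measure Slc40a1 lay 0.73 from the mean profile of the erythroid list, Cd68 0.84, Spic 0.84, Cd5l 1.14 and Axl 1.23. These genes were thus nearer to that mean than to C1qb, while Hmox1 (1.36) and Vcam1 (1.41) were nearer to C1qb. Of the members C1qb varied most between arrays, so the 2 distances are not on equal terms. Fcna read 4.82, 5.64, 6.01 and 4.66 on control 1 to 4 and 6.68, 6.79, 4.75 and 7.02 on Msi2 KO 1 to 4, an order of KO arrays like that of Hmox1. Fcer1a was not low on Msi2 KO 3, at 6.62 against 6.46 to 7.83 on the other KO arrays. Pf4 had its lowest KO value there (10.36), close to Msi2 KO 1 and 2 (10.55 and 10.51). These measures rest on 8 arrays that share the same group difference and carry no test. The member genes were picked on that difference, so their nearness to C1qb is in part set by that choice.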

How the data were processed

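Biotin-labelled RNA of LSK cells, 4 control and 4 Msi2 KO samples, was put on Affymetrix arrays, per the labels' protocols. The authors deposited log2 signals for each probe set, and the submitters' processing notes name RMA (version and settings not given in the sources used). Of 45101 probe sets 20664 (45.8%) were exactly 0 on all 8 arrays through a step no source states, and 0 were at 0 on some arrays only. They were left out with 33 AFFX controls, which left 24404. Gene names came from the platform annotation, updated by gene ID with the RefSeq table (GRCm38.p6). 34958 probe sets had 1 gene name, 932 several and 9211 none. Groups came from the labels and no array was left out.

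The member genes and all lists were chosen with earlier results of these data known. Differences are group means of log2 signals. Genes outside the set were compared with limma 3.58.1 in R 4.3.3 (lmFit, eBayes, two-sided, Benjamini-Hochberg over 24404 probe sets, threshold 0.05), and list counts use each gene's brightest probe set. The procedure was tested on simulated data. Named are every member, a fixed set of macrophage, iron and regulator genes, the 2 genes with the smallest p of each list that holds no cell type markers, and the 8 genes nearest to C1qb, without clone-like symbols and _x_at sets. Of C1q only C1qb could serve. Precision is limited by the number of arrays. Alternatives changed normalization, filters, the choice of probe set, the fit and the arrays used, including subsets by Xist level. Same-numbered arrays were checked for pairing, and the 4 correlations of their deviations were 0.13, -0.12, 0.08 and -0.04. Arrays of unlike number ran from -0.171 to 0.185, so no pairing was seen, though these values cannot exclude one.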

Additional observations from a re-analysis of the deposited data

Results flagged for a closer look

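Among groups of 4 arrays, 14 of 96 had 1 array far from the other 3 by Dixon's test, which chance gives in about 1 of 20 groups that are independent and not chosen on their values. That rate does not apply here, since the groups include the member genes and the genes picked as nearest to C1qb, whose profile is itself low on Msi2 KO 3. On Msi2 KO 3 this held for the mean of the member genes (-0.24, others 1.60 to 1.90) and for C1qb on both probe sets (5.22, others 9.60 to 9.83, on 1437726_x_at, and 5.30, others 8.75 to 9.08, on 1434366_x_at). It held there too for Cd5l (3.85, others 5.90 to 6.30) and Axl (4.77, others 6.83 to 7.17). Outside the set, Msi2 KO 3 was far below the other KO arrays for Mrc1 (4.50), Fcna (4.75) and Cd74 (5.83) and far above them for Blvrb (9.80, others 8.58 to 8.78). Msi2 KO 4 stood high for Mertk (4.88, others 3.47 to 3.70), Fcer1a (7.83) and Pf4 (11.64). Msi2 KO 1 stood low for Itga4 (9.31, others 10.03 to 10.08), and control 1 stood low for Sec24d (5.39, others 7.47 to 7.80).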

How the results depend on the processing

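Of all probe sets 0 passed limma's adjusted threshold, with 2371 at an unadjusted p under 0.05. With quantile normalization repeated 1 passed, with probe sets below the median level left out 1, with array weights 1 and with an intensity trend and robust prior 2. When each array was left out in turn 0 to 1 passed. The calls were probe sets of Aplp2, Elovl1 and Zg16, and no member was among them. The mean difference of the member genes, 1.22, ran from 0.78 (without control 1) to 1.71 (without Msi2 KO 3) when each array was left out in turn, and it was 2.94 within the low-Xist arrays, a choice made after seeing the data. The count of member probe sets with no overlap, 1, ran from 1 to 6 when each array was left out in turn, and was 3 in the high-Xist and 12 in the low-Xist arrays. Nothing is read from these counts, since the genes were picked on this contrast. Axl turned to -0.18 within the high-Xist arrays. With the replicate block 0 probe sets passed, and the member mean stayed at 1.22 by construction. With probe sets shared between transcripts left out, C1qb and Spic had none, and the other 6 genes differed by 1.15 on average. The cause was not tested in any of these cases.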
